A study of Mus musculus with 8 samples.

Results

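The haemoglobin and red cell genes Hba-a1, Hba-a2, Hbb-bs, Hbb-bt, Alas2 and Slc4a1 were followed in 8 mouse melanoma tumours as a measure of how much blood each tumour sample held. The 6 genes were found by matching their symbols to the Ensembl identifiers of the 34745 genes in the count files, and each symbol matched 1 identifier. All 6 were among the 13186 genes with enough counts to be tested. The tumours grew from B16F10 cells, a mouse melanoma line cultured and then injected under the skin of C57BL/6J mice. In 4 samples the mice received a high cholesterol diet (HCD 1 to HCD 4) and in 4 a normal diet (ND 1 to ND 4). The labels give the same cell line and mouse strain for both groups and give no sex, age, diet composition or time of harvest. Nor do they say whether each tumour was taken from a different mouse. The p-values below are therefore set against the variation among these libraries, and that variation may be technical. RNA-seq of whole tumour tissue gave 14599222 to 17722093 counts per library.

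Adult haemoglobin is a tetramer of alpha and beta globin chains, each holding a haem group that binds oxygen. Red cells make it while they mature in the bone marrow and spleen. Mature mammalian red cells have no nucleus, but young ones, the reticulocytes, still carry globin RNA, so a tissue sample that contains blood contains these transcripts. Hba-a1 and Hba-a2 encode the alpha chain, and Hbb-bs and Hbb-bt encode the beta chain of the C57BL/6 mouse. Alas2 encodes the red cell form of 5-aminolevulinate synthase, the enzyme of the first step of haem synthesis. Slc4a1 encodes band 3, the chloride and bicarbonate exchanger of the red cell membrane.

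The genes lie at 4 places in the genome (GRCm38, the assembly also called mm10, GENCODE M21 gene spans). Hba-a1 (ENSMUSG00000069919, chr11:32283511-32284465, plus strand) and Hba-a2 (ENSMUSG00000069917, chr11:32296489-32297298, plus strand) are neighbours in the alpha globin cluster. Hbb-bt (ENSMUSG00000073940, chr7:103812524-103813996, minus strand) and Hbb-bs (ENSMUSG00000052305, chr7:103826534-103828096, minus strand) are neighbours in the beta globin cluster. Slc4a1 (ENSMUSG00000006574, chr11:102348824-102366203, minus strand) lies far from the alpha cluster on the same chromosome. Alas2 (ENSMUSG00000025270, chrX:150547375-150570638, plus strand) shares exon bases with Apex2, a DNA repair gene, and with Mir3620. Apex2 had 107 to 228 counts per library. All 6 genes are annotated as protein coding.

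The globin copies are nearly the same sequence, which bears on every value of a single copy. The coding sequences of Hba-a1 and Hba-a2 differed at 1 of 429 bases, and those of Hbb-bs and Hbb-bt at 1 of 444 bases. Identity was 99.8% in both pairs, and the longest identical run was 380 bases in the alpha pair and 416 bases in the beta pair. The stretches around the differing base are shown, with that base in capitals (transcript sequences of GENCODE M21, coding strand, positions counted from 1 at the first coding base, substitution C381T from Hba-a1 to Hba-a2 and C417T from Hbb-bs to Hbb-bt).
Hba-a1 coding bases 361 to 400: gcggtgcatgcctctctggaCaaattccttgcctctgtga
Hba-a2 coding bases 361 to 400: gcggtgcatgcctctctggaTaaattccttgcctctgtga
Hbb-bs coding bases 397 to 436: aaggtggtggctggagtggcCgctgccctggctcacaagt
Hbb-bt coding bases 397 to 436: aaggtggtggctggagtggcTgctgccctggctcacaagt
The sources used here do not give how reads fitting both copies were counted. The split of counts within a pair is therefore uncertain. If such reads were left out, the sums of a pair and the share of globin counts are too low as well.

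The promoters of the genes were compared (RefSeq, GRCm38.p6, where 5 of the 6 genes matched an entry). The motifs searched for, on both strands of the 250 bases before the start, are known from red cell or general promoters. They were CACCC, the box bound by Klf1 and its relatives, then GATAA, the core recognised by GATA factors, then CCAAT, a box of many promoters, and TATAA, the box of the basal transcription machinery. All 4 globin genes held all 4 motifs, as did 0.968% of 32851 promoters of the same length. Alas2 held each of the motifs apart from CCAAT. Its TATAA matches began 207 and 208 bases before the start, whereas each globin gene had a match beginning 27 to 30 bases before it. The share over all promoters is background and not a test. The motifs were chosen as known from such promoters, and the globin genes are pairs of near copies. Singly, CACCC stood in 52% of all promoters and GATAA in 22.6%. The share was 33.8% for CCAAT and 22.8% for TATAA. Stretches of these windows that overlap no GENCODE exon are shown for genes of each kind, with the motifs on either strand in capitals (on the other strand CCAAT reads ATTGG, as in Hbb-bt, and the GATA core reads TTATC, as in Alas2).
Hba-a2, chr11:32296359-32296488, plus strand: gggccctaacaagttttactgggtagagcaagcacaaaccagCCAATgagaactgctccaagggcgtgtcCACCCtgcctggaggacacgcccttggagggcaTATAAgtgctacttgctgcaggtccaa
Hbb-bs, chr7:103827929-103828011, minus strand: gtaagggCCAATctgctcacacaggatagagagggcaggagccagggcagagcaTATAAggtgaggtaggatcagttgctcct
Hbb-bt, chr7:103813997-103814126, minus strand: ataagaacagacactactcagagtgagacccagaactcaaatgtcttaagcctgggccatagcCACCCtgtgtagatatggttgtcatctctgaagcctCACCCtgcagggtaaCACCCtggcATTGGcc
Alas2, chrX:150547245-150547374, plus strand: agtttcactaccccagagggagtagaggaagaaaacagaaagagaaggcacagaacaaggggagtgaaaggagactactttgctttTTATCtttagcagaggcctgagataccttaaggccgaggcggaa
The Hbb-bs stretch lies inside its GENCODE span, between exons. A match describes the letters of the window and not binding by a factor.

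The level of Hba-a1 was 65.1, 27.5, 236 and 118 FPKM (a level scaled by gene length and by library total) in HCD 1 to HCD 4, against 30.1, 51.3, 22.2 and 215 FPKM in ND 1 to ND 4. HCD 3 and ND 4 were the highest libraries, HCD 2 and ND 3 the lowest of their groups, and the groups overlapped. Hba-a2 had 43.2, 17.9, 154 and 78.7 FPKM in HCD 1 to HCD 4, against 19.7, 32.7, 16.7 and 145 FPKM in ND 1 to ND 4, with the 8 libraries in the same order as for Hba-a1. Alpha globin thus spanned about an order of magnitude between tumours on the same diet.

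Hbb-bs, the beta globin copy with the highest mean level, had 136, 10.6, 318 and 262 FPKM in HCD 1 to HCD 4, against 9.97, 51.4, 36.9 and 271 FPKM in ND 1 to ND 4. Again HCD 3, ND 4 and HCD 4 stood highest, while HCD 2 and ND 1 had the least, and the groups overlapped. Hbb-bt had 75.3, 34.8, 264 and 155 FPKM in HCD 1 to HCD 4, against 27.7, 56.7, 21.6 and 200.6 FPKM in ND 1 to ND 4. Its lowest library was ND 3, and its range within each diet covered most of the range of the other.

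Alas2 had 13.9, 4.54, 51.5 and 28.0 FPKM in HCD 1 to HCD 4, against 4.44, 7.09, 4.05 and 33.7 FPKM in ND 1 to ND 4. Slc4a1 was the scarcest of the 6 genes, with 0.841, 0.430, 2.79 and 1.09 FPKM in HCD 1 to HCD 4, against 0.203, 0.724, 0.0908 and 1.55 FPKM in ND 1 to ND 4. Both followed the globins: HCD 3 was highest and ND 3 lowest, and the groups overlapped. The Slc4a1 values rest on 72, 37, 254 and 103 counts in HCD 1 to HCD 4 and on 19, 65, 8 and 120 counts in ND 1 to ND 4. The 8 counts of ND 3 have an exact 95% Poisson interval of 3.45 to 15.8 counts, which covers counting error only.

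For all 6 genes the 5 highest libraries came in 1 order, HCD 3, ND 4, HCD 4, HCD 1 and ND 2. ND 1, HCD 2 and ND 3 filled the last 3 places in an order that varied by gene. The highest library exceeded the lowest by 10.6 times for Hba-a1, 9.26 times for Hba-a2, 31.9 times for Hbb-bs, 12.2 times for Hbb-bt, 12.7 times for Alas2 and 30.7 times for Slc4a1 (FPKM). A bulk sample cannot tell fewer red cells from less RNA per red cell.

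**Figure D1:**
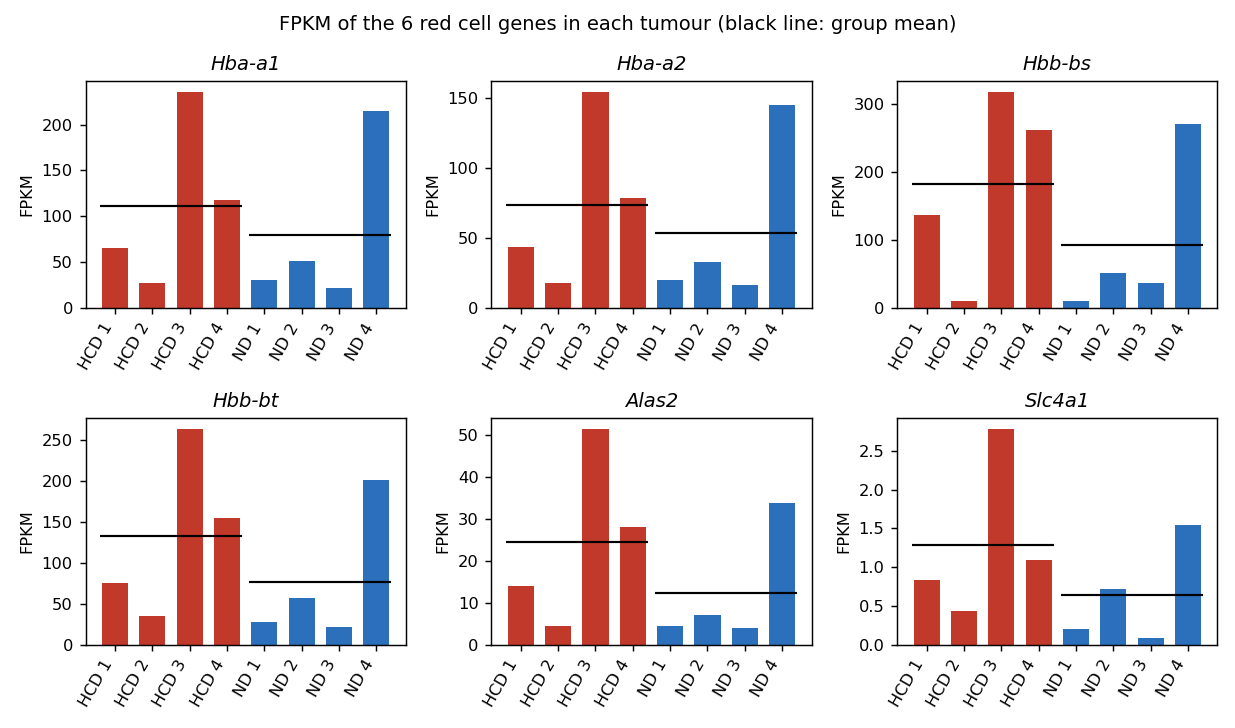
Level of each of the 6 genes (FPKM, linear axes from 0, one panel per gene) in HCD 1 to HCD 4 (red bars) and ND 1 to ND 4 (blue bars), with a black line at each group mean. HCD 3 is the highest bar in every panel and ND 4 stands well above the other ND bars, so the groups overlap for every gene.

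The diet comparison asks whether tumours of mice on the high cholesterol diet held more or less of these transcripts. Group means were higher in HCD for all 6 genes, but no difference exceeded the spread between libraries. Hba-a1 averaged 111 ± 90.6 FPKM in HCD and 79.5 ± 90.8 FPKM in ND (SD, n = 4 each), and its log2 fold change of HCD over ND was 0.46 with a standard error of 0.76 (edgeR quasi-likelihood test on counts, Benjamini-Hochberg adjusted p = 0.838). Hbb-bs averaged 182 ± 137 FPKM in HCD and 92.2 ± 120 FPKM in ND, and its log2 fold change was 0.95 with a standard error of 0.996 (adjusted p = 0.728 in the same edgeR test). The log2 fold change was 0.43 for Hba-a2, 0.76 for Hbb-bt, 0.96 for Alas2 and 0.99 for Slc4a1. Standard errors of these 4 ran from 0.741 to 0.793, and their edgeR adjusted p-values from 0.611 to 0.847.

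Of the 6 genes, 0 were called at an adjusted p under 0.05 with edgeR, where 24 of all 13186 genes (0.182%) were called, 9 higher (0.0683%) and 15 lower (0.114%) in HCD. At an unadjusted p under 0.05 the same test also gave 0 of the 6, beside 14.7% of all genes. DESeq2, which called 3.39% of all genes, and limma-voom, which called 0.144%, called 0 of the 6 as well. The groups overlapped for all 6 genes, while 9.67% of all genes tested had groups that did not overlap. The intervals of the differences were wide. For Hba-a1 the 95% interval of the log2 fold change ran from -1.41 to 2.32, and for Alas2 from -0.98 to 2.90. These intervals used 6 degrees of freedom, fewer than the edgeR test, and so are somewhat wider than that test would give.

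Single libraries moved the diet difference, ND 4 and HCD 3 the most. Without ND 4 the log2 fold change was 1.64 to 2.43 over the 6 genes, and all 6 had an unadjusted p under 0.05, as did 12% of all genes in that fit. The smallest edgeR adjusted p of the 6 was 0.261, and 0 genes were called over all. Without HCD 3 it was -0.21 for Hba-a1, -0.23 for Hba-a2 and 0.18 to 0.53 for the other 4 genes. ND 2, ND 3 and ND 4 had counts on 438 to 465 sensory receptor genes, against 8 to 13 in HCD 1 to HCD 4 and ND 1. Fitting a term for those 3 libraries compares HCD with ND 1 alone, whose spread is taken to be that of the others. It gave log2 fold changes of 1.86 to 4.16 for the 6 genes, with a smallest edgeR adjusted p of 0.450. ND 4, the library with high globin, and ND 3, one of the lowest, were on the same side of this split of libraries.

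**Figure D2:**
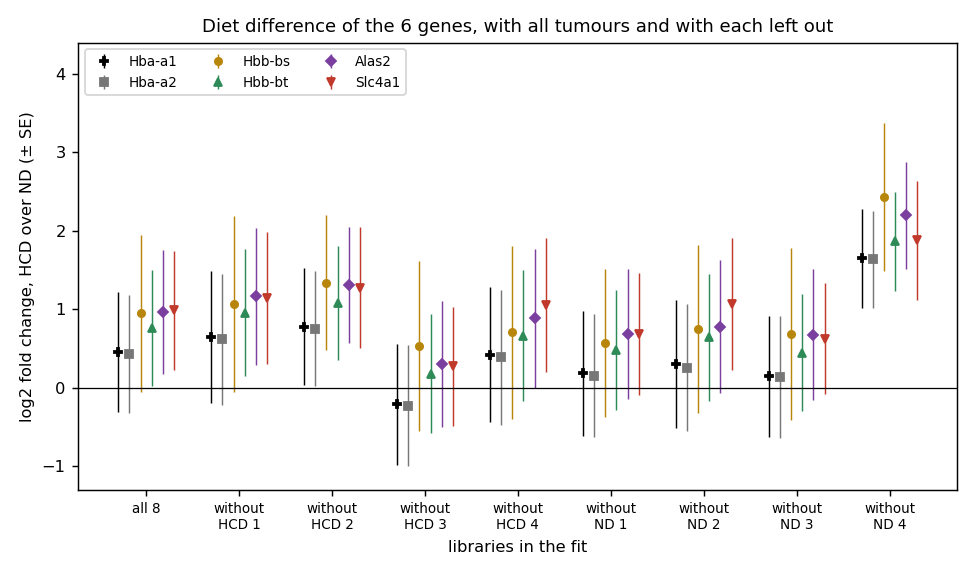
Log2 fold change of HCD over ND (vertical axis) with its standard error for each of the 6 genes, in the edgeR fit of all 8 libraries and in fits that leave out the library named on the horizontal axis. Points rise to between 1.64 and 2.43 without ND 4, and those of Hba-a1 and Hba-a2 fall below 0 without HCD 3.

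The 4 globin genes together took 0.0412%, 0.00944%, 0.118% and 0.0787% of counts in HCD 1 to HCD 4, against 0.00934%, 0.0225%, 0.0123% and 0.102% in ND 1 to ND 4. The HCD mean exceeded the ND mean by 0.0253 percentage points, less than the pooled SD within groups of 0.0455 percentage points. It was 0.00661 percentage points without HCD 3 and 0.0471 without ND 4.

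Within a group, the 6 genes varied far more than most. The SD of log2 CPM (counts scaled to a common library total) within groups was 1.36 to 2.12 for the 6 genes, against a median of 0.184 over all genes tested. Ranked by this SD, Hbb-bs was 14th, Alas2 73rd, Slc4a1 79th, Hba-a1 87th, Hba-a2 90th and Hbb-bt 95th of 13186 genes. The biological coefficient of variation fitted by edgeR was 69.6% to 90.6% for the 6 genes, where the value common to all genes was 17.2%.

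The 6 genes kept step across tumours. Over the 8 libraries, Pearson's r of log2 CPM was 0.782 to 0.999 and Spearman's rho 0.905 to 1 for the 15 pairs. Every pair passed the threshold, with adjusted p at most 0.022 for Pearson and 0.00456 for Spearman (two-sided exact permutation tests over 8 libraries, Benjamini-Hochberg over 15 pairs). Hba-a1 and Hba-a2 had the highest r, 0.999 (rho 1, exact permutation p 2.48e-05 for r, the smallest the pairings can give, adjusted 0.000124), and share most of their sequence. Genes at separate loci also moved together: r was 0.984 between Hba-a1 and Alas2 (rho 1), 0.99 between Hba-a1 and Hbb-bt (rho 0.976) and 0.95 between Hbb-bt and Slc4a1 (rho 1). The lowest r was 0.782, between Hbb-bs and Slc4a1 (rho 0.929).

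Leaving out the 2 libraries farthest from the median of the first gene of a pair left r at 0.806 to 0.996. For Alas2 and Slc4a1, the pair at 0.806, the exact permutation p over the 6 remaining libraries was 0.0528. With single libraries left out, 14 pairs passed without ND 1, without ND 4 or without HCD 3, and 15 without any other one. ND 2 to ND 4 and the other 5 libraries hold 3 and 5 samples, too few for a correlation within either set.

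**Figure D3:**
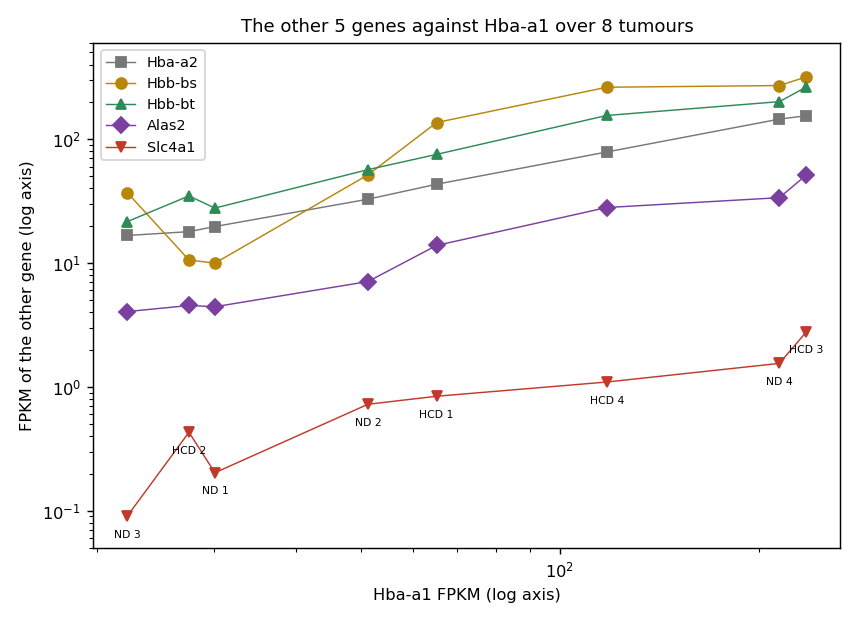
FPKM of the other 5 genes (vertical log axis) against Hba-a1 FPKM (horizontal log axis) in the 8 tumours, with lines joining the tumours of 1 gene and names under the Slc4a1 points. Hba-a2, Hbb-bt and Alas2 rise nearly in parallel with Hba-a1, while Hbb-bs dips in HCD 2 and ND 1.

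Ratios per length within a library take out the overall amount of red cell RNA. Hbb-bt stood at 1.16, 1.26, 1.12 and 1.32 times the Hba-a1 level (FPKM) in HCD 1 to HCD 4, against 0.921, 1.11, 0.972 and 0.935 times in ND 1 to ND 4. This ratio was higher in every HCD library than in any ND library. It was given no test, having been picked out after its values were seen. With GENCODE exon lengths it was below 1 in all libraries, 0.762 to 0.897 in HCD and 0.627 to 0.752 in ND. For the other ratios to Hba-a1 the groups overlapped. Alas2 stood at 0.138 to 0.238 times the Hba-a1 level and Slc4a1 at 0.00409 to 0.0156 times. Hbb-bs ranged more widely than Hbb-bt, from 0.331 to 2.23 times the Hba-a1 level by the deposited FPKM and from 0.509 to 3.42 times with GENCODE exon lengths. Summed beta globin was 1.95, 0.998, 1.49 and 2.12 times summed alpha globin in HCD 1 to HCD 4, against 0.757, 1.29, 1.504 and 1.31 times in ND 1 to ND 4 (FPKM).

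The split between copies was steady for alpha and uneven for beta globin. Hba-a1 took 63.2%, 63.6%, 63.5% and 63.0% of alpha globin counts in HCD 1 to HCD 4, against 63.5%, 64.1%, 60.3% and 62.7% in ND 1 to ND 4. Hbb-bs took 81.7%, 42.9%, 74.8% and 80.7% of beta globin counts in HCD 1 to HCD 4, against 47.0%, 69.1%, 80.8% and 76.9% in ND 1 to ND 4. HCD 2 and ND 1, with exact 95% binomial intervals of 39.1% to 46.6% and 43.1% to 50.9%, stood below the other 6 libraries, whose intervals began at 67.1% or above. These intervals cover counting error only. The low share occurred once in each diet. HCD 2 and ND 1 had 297 and 305 Hbb-bs counts, while ND 3, with fewer Hbb-bt counts than either, had 1062.

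The order of the globins per length within a library depends on the gene lengths behind the FPKM values. The deposited values imply a length of 1734 bases for Hbb-bs, longer than its GENCODE M21 span of 1563 bases and 2.26 times its exons there (768 bases), while for Hbb-bt the implied length and the exons are both 703 bases. By the deposited FPKM, Hbb-bs was the lowest of the 4 globins in HCD 2 and ND 1, the highest in HCD 1, HCD 3, HCD 4, ND 3 and ND 4, and second to Hbb-bt in ND 2. With GENCODE exon lengths it was again lowest in HCD 2 and ND 1 and was highest in the other 6 libraries. In every library, and by both sets of lengths, Alas2 ranked below the 4 globins and Slc4a1 below Alas2. Counts within a pair that were wrongly assigned between copies cancel in the pair's sum. Reads left out for fitting both copies would not. The summed alpha pair had a log2 fold change of 0.44 ± 0.759 (SE) and the summed beta pair of 0.90 ± 0.897 (SE), close to those of the copies.

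**Figure D4:**
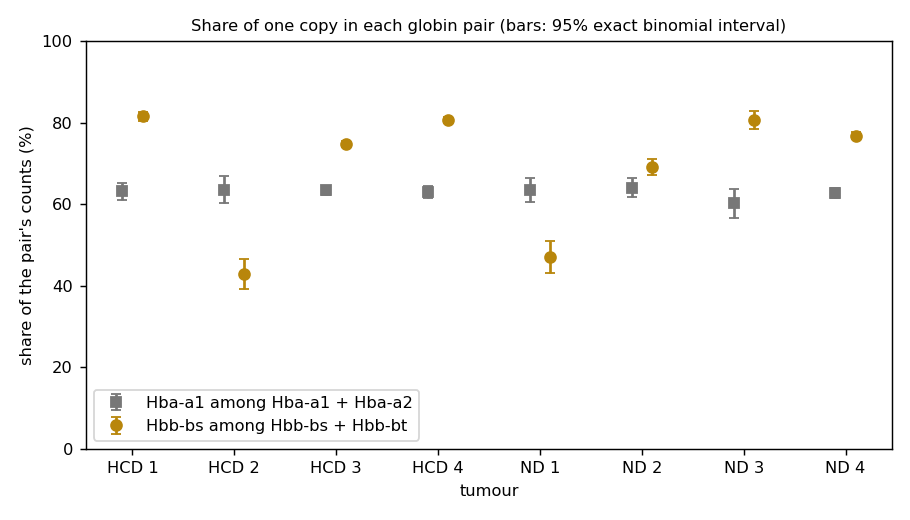
Share of counts (vertical axis, percent) that Hba-a1 takes of the alpha globin pair (grey squares) and Hbb-bs of the beta globin pair (gold circles) in HCD 1 to HCD 4 and ND 1 to ND 4, with exact 95% binomial intervals. The alpha share stays between 60.3% and 64.1%, and the beta share is lowest in HCD 2 and ND 1.

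Genes whose pattern over the 8 libraries was most like that of Hbb-bs, the member with the highest mean FPKM, were ranked by Pearson's r of log2 CPM over all 13185 other genes tested. Rab17, a Rab family GTPase, came first with r = 0.955, then Ndufb2, a subunit of respiratory complex I, with r = 0.936, and Alas2 ranked next. Zfp52, Abi1, Zdhhc23, 2810402E24Rik, Mtfr1, Fam117a, Apoc2 and Uba3 followed with r of 0.923 to 0.910. Most of these changed little in size: the highest library exceeded the lowest by 1.71 times for Rab17 and by 1.30 to 2.10 times for the others, apart from Fam117a (8.33 times) and Apoc2 (3.97 times). Among the other red cell genes here, Hba-a2 ranked 13th, Hbb-bt 15th, Hba-a1 17th and Slc4a1 98th. The median r over all genes was 0.0154, and 81 genes had r above 0.8, so over 8 points a high r is shared by genes with small changes. A ranking by likeness to Hba-a1, added after the values were seen, placed Hba-a2, Hbb-bt and Alas2 first. Tecpr2 (r = 0.957) and Pdss2 (r = 0.924) came 4th and 5th, ahead of Slc4a1 (6th) and Hbb-bs (13th).

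Most other genes specific to red cells had few counts. The 5 lists used held 64 symbols for other globins, the red cell membrane, haem synthesis, red cell transcription factors and late maturation, of which 63 were in the files and 38 were tested. The edgeR test called 0 of the 38 at an adjusted p under 0.05 and 4 at an unadjusted p under 0.05 (14.7% over all genes). Their log2 fold changes were above 0 for 23 and below 0 for 15, with a median of 0.026 beside 0.0049 over all genes. DESeq2 called 1 of them, Zfpm1, beside 3.39% of all genes.

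Among the other globins, the embryonic genes Hba-x, Hbb-y, Hbb-bh1 and Hbb-bh2 and the neuronal gene Ngb had a count of 0 in all 8 libraries, which allows up to 3 counts, or 0.169 to 0.205 CPM, per library. Hbq1b had 4, 4, 13 and 2 counts in HCD 1 to HCD 4, against 0, 2, 0 and 3 in ND 1 to ND 4, and Hbq1a had at most 1 count. Mb, the muscle oxygen store myoglobin, had at most 7. Only Cygb, encoding cytoglobin, a globin of fibroblasts and other tissues, passed the filter, with 74 to 158 counts per library and a log2 fold change of 0.03.

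In the membrane list, 9 of 17 genes were tested and 6 had a log2 fold change above 0. Epb42, encoding protein 4.2, which binds band 3, had 24 counts in HCD 3 and 13 in ND 4 and at most 2 in the other 6 libraries. Epb41, encoding protein 4.1, which many cell types express, had 249 CPM in HCD 3 and 134 to 155 CPM in the other 7. Tmod1 and Aqp1, also expressed outside red cells, had log2 fold changes of 0.21 and -0.20.

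Haem synthesis genes were expressed in every tumour at similar levels. All 14 were tested, with 8 above 0 and 6 below 0, and none reached an unadjusted p under 0.05 in the edgeR test. Alas1, the form of 5-aminolevulinate synthase used by most tissues, averaged 62.2 ± 4.61 CPM in HCD and 58.5 ± 5.64 CPM in ND (SD, n = 4 each), beside 77.5 ± 64.8 and 39.9 ± 46.3 CPM for Alas2. Fech, which inserts iron into the haem ring, averaged 85.7 ± 8.35 CPM in HCD and 81.4 ± 4.69 CPM in ND. The mitochondrial transporter gene Slc25a39 and the porphyrin transport gene Tmem14c had log2 fold changes of -0.01 and 0.01.

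Of 12 transcription factors and regulators of the red cell line, 6 had enough counts to be tested. Gata1, the master regulator of the red cell line, had 0, 0, 5 and 3 counts in HCD 1 to HCD 4, against 0, 2, 0 and 1 in ND 1 to ND 4. Klf1, which activates beta globin, had 3 to 13 counts and its lowest count in HCD 3, the library with the most globin. Gfi1b had 10 counts in HCD 3 and 0 in the other 7 libraries. Epor, the erythropoietin receptor, had 17 to 40 counts and a log2 fold change of -0.38. Ldb1 and Zfpm1, which other cell types express too, were the most abundant of this list. Zfpm1 averaged 50.2 ± 3.70 CPM in HCD and 62.9 ± 3.58 CPM in ND, and its groups did not overlap (edgeR adjusted p = 0.118, DESeq2 adjusted p = 0.023). Lmo2 had an edgeR unadjusted p of 0.0336 and an adjusted p of 0.298.

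Of 12 late maturation genes, 11 were in the files and 8 were tested, with 4 above 0 and 4 below 0. Ahsp, the alpha globin chaperone gene, was not analysed here. Car1, a red cell carbonic anhydrase gene, had a count of 0 in all 8 libraries. Tspo2 had 4, 4, 12 and 9 counts in HCD 1 to HCD 4, against 0, 0, 0 and 4 in ND 1 to ND 4. Tent5c, which encodes a poly(A) polymerase, had 8.10, 7.03, 21.4 and 12.2 CPM in HCD 1 to HCD 4, against 8.52, 4.58, 7.10 and 15.8 CPM in ND 1 to ND 4, highest in HCD 3 and ND 4 like the globins. Bnip3l, Ube2o and Mkrn1, which act in clearing organelles and proteins or in ubiquitin transfer in many cells, had log2 fold changes of -0.15, 0.00 and -0.21. Tfrc, the transferrin receptor gene that supplies iron to dividing cells, averaged 446 ± 76.2 CPM in HCD and 389 ± 26.4 CPM in ND (edgeR adjusted p = 0.467).

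The next list holds genes that clear haemoglobin and haem. Of 12 genes, 10 were tested, 5 above 0 and 5 below 0, and 0 were called. Hp, encoding haptoglobin, which binds free haemoglobin, had 25.2, 2.91, 12.8 and 2.33 CPM in HCD 1 to HCD 4, against 3.60, 2.53, 4.94 and 2.36 CPM in ND 1 to ND 4. HCD 1 and HCD 3 were high, the other libraries low, and the groups overlapped (log2 fold change 1.68 ± 0.675, SE; edgeR adjusted p = 0.292). HCD 4 and ND 4, both rich in globin, had the lowest Hp levels, but HCD 3, with the most globin, had 12.8 CPM. Cd163, the macrophage receptor for the haptoglobin and haemoglobin complex, had 0 to 35 counts. Hmox1, which breaks down haem, averaged 203 ± 29.3 CPM in HCD and 204 ± 29.8 CPM in ND, and the ferritin genes Fth1 and Ftl1 and the haem transporter gene Slc48a1 had log2 fold changes of 0.08, -0.09 and -0.07.

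Other cells that circulate in blood were checked by their markers. Platelet markers summed to 3.72 to 8.88 CPM in HCD and 3.27 to 8.26 CPM in ND, highest in HCD 3, and 4 of 13 were tested. Pf4, a platelet chemokine gene, had 18 to 56 counts, and Itga2b and Gp1bb at most 24. Neutrophil markers summed to 3.63 to 5.82 CPM in HCD and 1.63 to 12.6 CPM in ND. S100a8 had at most 9 counts, Camp and Mpo had 0 in all libraries, and Mmp8 and Csf3r were the 2 of 13 tested. B cell markers summed to 5.28 to 6.81 CPM in HCD and 1.15 to 7.44 CPM in ND, and T cell markers to 11.8 to 17.8 CPM in HCD and 7.78 to 21.2 CPM in ND. Lck, averaging 11.7 CPM over all libraries, was the largest part of the T cell sum. No gene of these 4 lists was called or reached an unadjusted p under 0.05 in the edgeR test.

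No relation of Hbb-bs to the summed level of a list passed the test. Pearson's r of Hbb-bs with the summed CPM of 15 lists ran from -0.56 to 0.586, with Spearman's rho of -0.452 to 0.619, and 0 of 15 passed (exact permutation tests over 8 libraries, adjusted p of at least 0.846 for Pearson and 0.873 for Spearman). Without the 2 libraries farthest from the median of Hbb-bs, r ran from -0.718 to 0.821. Skeletal muscle markers summed to 5.70, 4.30, 8.71 and 5.45 CPM in HCD 1 to HCD 4, against 58.0, 95.6, 15.8 and 4.997 CPM in ND 1 to ND 4. Among ND libraries these markers were lowest in ND 4, the one with the most globin. Among HCD libraries they were instead highest, at 8.71 CPM, in the one with the most globin. Acta1, skeletal muscle actin, had a log2 fold change of -4.01 (edgeR adjusted p = 0.106, DESeq2 adjusted p = 0.00825, and 0.0272 with edgeR and no filter). All 6 tested muscle genes were below 0, each at an unadjusted edgeR p under 0.05 (14.7% over all genes, in either direction). Their part in the globin values was not tested.

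Endothelial markers summed to 636 to 735 CPM in HCD and 585 to 731 CPM in ND, with 10 of 13 genes above 0, 5 of the 13 at an unadjusted p under 0.05 in the edgeR test (14.7% over all genes) and 0 called. Eng and Vwf, averaging 348 and 184 CPM over all libraries, made up most of this sum, with log2 fold changes of 0.10 and -0.23. Pecam1, a junction protein of vessel walls, averaged 30.1 ± 2.49 CPM in HCD and 23.7 ± 2.25 CPM in ND (edgeR adjusted p = 0.164). Its groups did not overlap, as in 9.67% of all genes, and its highest library was HCD 3, while ND 4 stood between ND 2 and ND 1. Macrophage markers summed to 493 to 644 CPM in HCD and 320 to 550 CPM in ND, with 11 of 12 genes above 0, 4 at an unadjusted p under 0.05 in the edgeR test and 0 called. Among them Mrc1, the mannose receptor gene, singled out after its values were seen, averaged 20.3 ± 4.37 CPM in HCD and 9.05 ± 1.96 CPM in ND without overlap. Its log2 fold change was 1.17 (edgeR adjusted p = 0.0506, DESeq2 adjusted p = 9.6e-06, and 0.00764 with edgeR and no filter). Fibroblast markers summed to 303 to 506 CPM in HCD and 251 to 491 CPM in ND (9 of 9 tested above 0, 0 called). Pigment cell genes, which mark the B16F10 line, were abundant in every library. Dct, a melanin synthesis gene, averaged 12041 ± 1585 CPM in HCD and 12219 ± 535 CPM in ND. Of the 8 melanocyte genes, Mitf, the master regulator of pigment cells, rose, with 453 ± 51.3 CPM in HCD and 251 ± 34.3 CPM in ND (log2 fold change 0.85, edgeR adjusted p = 0.0459). Mitf was called without ND 2 but not without any other single library, nor with the term for ND 2 to ND 4, while its log2 fold change without single libraries stayed between 0.77 and 0.93.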

How the data were processed

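The authors deposited, per the file headers, a count of reads per Ensembl gene and an FPKM value for each of the 8 tumour libraries. The counts are whole numbers without normalization, and the deposited FPKM equals the count divided by a gene length and the library's total. Per the labels' protocols, total RNA (RNeasy kit, Qiagen) went into paired-end TruSeq libraries. TopHat2 2.0.9, HTSeq, edgeR, CASAVA 1.8 and the build mm10 are named in the submitters' processing notes. For the annotation, strand setting and handling of multiply mapped reads, the settings are not given in the sources. Of 34745 genes, 34267 were named from GENCODE M21.

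The diet in each label gave its group. Counts were tested with edgeR 4.0.16 (R 4.3.3, limma 3.58.1; quasi-likelihood test, TMM factors, and an expression filter with a minimum count of 10 and total of 15) over the 8 libraries, using Benjamini-Hochberg adjustment over 13186 genes and a threshold of 0.05. Log2 CPM used a prior count of 2. FPKM gave levels per length only. Correlations over libraries used exact permutation tests (Python 3.11.15, numpy 2.4.6). Alternatives were DESeq2 1.42.0, limma-voom, other size factors, no filter, library totals without globins, a replicate block, a term for ND 2 to ND 4 and leaving out each library. Within groups, the variance between libraries was 14.5 to 37.6 times that of sampling noise, so none was counted as a repeat of another.

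The 6 genes and 15 marker lists (175 symbols, 1 not in the files) were chosen with earlier results of these data known. Named genes were the 6, the 3 most abundant of each list, called genes of a list, 15 genes chosen by name and the 10 most like Hbb-bs. The values of 1 named gene are not reported here. Further genes given by their counts, and Tent5c, Tspo2 and Epb42 among them, were chosen after their values were seen. On simulated counts for this comparison (13186 genes), the fit recovered 46.3% of genes changed 1.5-fold, 77.6% changed 2-fold and 98.5% changed 4-fold, with 2 false calls. The 6 genes vary more than typical genes.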

Additional observations from a re-analysis of the deposited data

Results flagged for a closer look

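In 170 groups of 4 libraries, 22 (12.9%) held a library far from the other 3 by Dixon's test. For independent, normally distributed values chance gives this in about 1 group in 20. The values here were not put on a log scale, and some genes move together or were chosen by their values. The 12.9% can therefore not be set against that rate. ND 4 stood above the other ND libraries for Hba-a1 (259 CPM, others 27.2 to 62.4), Hba-a2 (154 CPM, others 17.9 to 35.0), Hbb-bs (475 CPM, others 17.4 to 90.9), Alas2 (109 CPM, others 13.3 to 23.1) and the share of globin counts (0.102%, others 0.00934% to 0.0225%). These 5 values describe 1 event, since the genes move together. HCD 3 stood above the other HCD libraries for Epb41 (249 CPM), the summed red cell membrane list (396 CPM, of which Epb41 is the largest part), Acta1 (1.33 CPM), C1qb (111 CPM) and the summed macrophage list (644 CPM).

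Of the others, HCD 4 was low for Col3a1 (20.9 CPM), Col1a2 (18.5 CPM) and the fibroblast (303 CPM) and T cell (11.8 CPM) sums, and HCD 1 was low for Cd68 (134 CPM). ND 1 was high for Tmem14c (77.2 CPM). ND 2 was high for Gp1bb (1.45 CPM) and the membrane sum (310.1 CPM) and low for Slc48a1 (232 CPM), and ND 3 was high for Mmp8 (5.99 CPM). ND 4 was also high for Mtfr1 (62.3 CPM) and Fam117a (1.53 CPM), both chosen for likeness to Hbb-bs.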

How the results depend on the processing

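Under 16 alternatives, 0 of the 6 genes were called, with a smallest adjusted p of 0.261 to 0.871. Leaving out single libraries moved the log2 fold change of Hba-a1 from -0.21 to 1.65 and of Hba-a2 from -0.23 to 1.64, below 0 only without HCD 3; the other 4 genes stayed above 0. Over all genes 93 were called with no filter, 429 with DESeq2, 0 with the replicate block, 5 under the term for ND 2 to ND 4, and 0 to 12 without single libraries, against 24; of listed genes 5, 6, 0, 0 and 0 to 1, against 1. Same-numbered libraries had correlations of 0.0249, -0.0113, -0.0676 and 0.107, so the numbers were not taken to pair samples, and with the replicate block the 6 log2 fold changes were 0.52 to 1.203.

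Listed genes changed sign. Under the term for ND 2 to ND 4 the log2 fold changes were -0.0850 (Alas1), -0.32 (Cygb), -0.0698 (Tmem14c), 0.25 (Ftl1), 0.33 (Gp1bb), 0.0538 (Itga2b), -0.14 (Csf3r), 0.75 (Mmp8, against -0.85), -0.54 (Cd8a), -0.0322 (Eng), -0.0480 (Cd68), -0.20 (C1qa, against 0.54), -0.0358 (C1qb, against 0.58), -0.32 (Col3a1, against 0.70), -0.26 (Col1a2, against 0.78) and 0.0326 (Dct). Others were 0.00430 (Hmox1) and 9.18e-05 (Slc25a39) with no filter, -0.0141 (Cygb) and 0.0756 (Gp1bb) with limma-voom, 0.0591 (Gp1bb) with the replicate block and -0.00370 (Ube2o) with upper-quartile factors. Without single libraries the ranges were -0.10 to 0.063 (Hmox1), -0.077 to 0.22 (Cygb), -0.11 to 0.25 (Epb41), -0.059 to 0.020 (Slc25a39), -0.0054 to 0.038 (Tmem14c), -0.034 to 0.068 (Ube2o), -0.24 to 0.092 (Ftl1), -0.19 to 0.44 (Gp1bb), -0.78 to 0.11 (Itga2b), -0.24 to 0.50 (Csf3r), -1.15 to 0.29 (Mmp8), -0.34 to 0.0038 (Lck), -0.16 to 0.48 (Cd8a), -0.025 to 0.11 (Cd68), -0.080 to 0.054 (Dct), -0.028 to 0.071 (Tyrp1) and -0.058 to 0.59 (Apoc2). The causes were not tested. Depth limits Slc4a1 (8 to 254 counts) and the red cell factors, not the globins (252 to 9456 counts).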
